A study of Mus musculus with 6 samples.

Results

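Transcripts of 10 macrophage and leukocyte marker genes were followed in mouse mesenchymal stem cell cultures, which hold the stromal cells that can form fat, bone or cartilage. The genes are Cd14, Cd68, Csf1r, Adgre1, Lyz2, Tyrobp, Fcer1g, Ptprc, Itgam and Cd53, and every probe set whose annotated symbol is exactly 1 of these names was taken. That gave 14 of the 45037 probe sets tested and 10 of 18193 genes, chosen by name alone, with earlier results of these data known. Of the 10 genes 7 had a single probe set, while Csf1r had 3, and Ptprc and Cd53 had 2 each. The irradiated group held 3 cultures that received broadband terahertz pulses for 2 h, centred near 10 THz, 35 fs long, at 1 kHz and 1 mW/cm2. The control group held 3 unexposed cultures, each placed next to an exposed culture at 26 to 27 °C in 1 of 3 independent experiments. All 6 cultures were commercial cells in α-MEM (95%) with serum (5%), and all had again received rosiglitazone (1 µM), insulin (5 µg/ml), IBMX (100 µM) and dexamethasone (1 µM) 48 h earlier. Mouse strain, tissue of origin and passage are not given in the sources used here, and no sort or depletion of blood cells is described there.

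Macrophages are phagocytes of the myeloid lineage that live in most tissues, fat and bone marrow included, and stromal cultures from such tissues can carry them along. Their survival depends on the receptor Csf1r, which binds the growth factors Csf1 and Il34. Macrophages sense bacterial lipopolysaccharide through Cd14 and Toll-like receptor 4, and they pass signals of many activating receptors through the adaptors Tyrobp and Fcer1g to the kinase Syk. Ptprc, the phosphatase CD45, and the tetraspanin Cd53 are carried by leukocytes in general. Itgam is the CD11b integrin chain of myeloid cells, and Adgre1 encodes F4/80, the classical mouse macrophage antigen. Lyz2, lysozyme M, and Cd68, a lysosomal membrane glycoprotein, belong to the digestive machinery of phagocytes, and Cd14 and Cd68 are also made by some stromal and fat cells.

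Many macrophage genes are bound by the transcription factor PU.1, encoded by Spi1, whose classical purine-rich box reads GAGGAA. RefSeq promoter windows of build GRCm38.p6, from 250 bases before to 50 bases after the start site, were analysed for 6 of the marker genes, in 7 windows. The letters GAGGAA or their complement TTCCTC were found in 4 of these 7 windows (57.1%), of Ptprc, Cd53, Itgam and Cd68, and in 28.3% of all 32851 windows. A match is a description of the sequence and was not tested for binding. The windows of 2 myeloid genes, Itgam (chr7:128062390-128062689, plus strand) and Cd68 (chr11:69666121-69666420, minus strand), of the leukocyte gene Cd53 (chr3:106790100-106790399, minus strand) and of Lyz2 (chr10:117282223-117282522, minus strand), which has no match, are shown to let the boxes be compared. They run 5′ to 3′ along the gene, with the matches in capitals.
Itgam: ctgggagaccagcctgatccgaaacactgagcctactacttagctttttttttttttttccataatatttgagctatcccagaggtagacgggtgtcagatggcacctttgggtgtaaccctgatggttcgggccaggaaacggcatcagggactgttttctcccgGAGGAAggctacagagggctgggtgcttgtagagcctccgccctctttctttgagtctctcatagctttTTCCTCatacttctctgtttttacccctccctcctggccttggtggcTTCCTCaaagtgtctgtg
Cd68: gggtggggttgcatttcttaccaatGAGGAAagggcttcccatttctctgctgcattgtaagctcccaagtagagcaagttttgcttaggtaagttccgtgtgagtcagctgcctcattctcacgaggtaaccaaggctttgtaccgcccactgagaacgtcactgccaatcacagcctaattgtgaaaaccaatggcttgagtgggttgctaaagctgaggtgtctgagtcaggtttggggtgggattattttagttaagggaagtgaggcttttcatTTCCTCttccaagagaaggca
Cd53: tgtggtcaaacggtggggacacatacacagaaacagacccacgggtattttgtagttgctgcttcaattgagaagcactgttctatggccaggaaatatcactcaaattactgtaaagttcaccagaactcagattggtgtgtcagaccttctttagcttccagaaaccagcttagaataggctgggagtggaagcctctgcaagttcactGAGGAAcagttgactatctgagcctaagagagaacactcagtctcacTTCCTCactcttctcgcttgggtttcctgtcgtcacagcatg
Lyz2: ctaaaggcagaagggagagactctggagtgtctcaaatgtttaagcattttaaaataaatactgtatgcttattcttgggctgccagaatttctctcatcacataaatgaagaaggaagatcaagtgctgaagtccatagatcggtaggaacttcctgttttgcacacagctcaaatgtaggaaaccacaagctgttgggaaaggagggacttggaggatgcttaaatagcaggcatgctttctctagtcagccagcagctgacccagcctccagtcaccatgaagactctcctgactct
In Itgam a forward match starts 84 bases before the start site, and in Cd53 one starts 39 bases before it. Cd68 has 1 match at 225 bases before and 1 at 29 bases after the start site. Windows of Adgre1, Cd14, Csf1r and Tyrobp are not analysed here.

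RNA was measured on Affymetrix arrays, and each value is a log2 level of 1 probe set on 1 array, normalized by the authors with RMA. Array medians lay between 4.82 and 4.87 and the highest value was 14.57. Probes bind with different strength, so percentiles among all probe sets, used below to place genes and lists, are only a rough description of how abundant a transcript was. Differences between cultures are taken within a probe set. The 18 spike-in probe sets averaged 11.63 on the array of control culture 3 and 11.06 to 11.25 on the others. The 3' minus 5' probe set difference of Gapdh, which follows RNA quality, came to 0.23 and 0.19 in the irradiated and control cultures of experiment 1, and between -0.05 and -0.01 in the other cultures. That of Actb came to 0.76 and 0.75 in the irradiated and control cultures of experiment 1, 0.61 and 0.62 in experiment 2, and 0.62 and 0.72 in experiment 3.

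All 10 genes had at least 1 probe set far above the middle of the array. Of the 14 probe sets 12 lay above the median probe set, at mean levels from 7.56 to 14.21 and between percentiles 75.8 and 99.98 of all probe sets. The dim ones, Ptprc 1440165_at and Cd53 1459744_at, averaged 2.98 and 4.02, at percentiles 14.2 and 37.5, while the other probe set of each of these genes was bright. No detection calls were used. In these whole cultures, fewer cells of a type and less RNA per cell cannot be told apart.

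**Figure D1:**
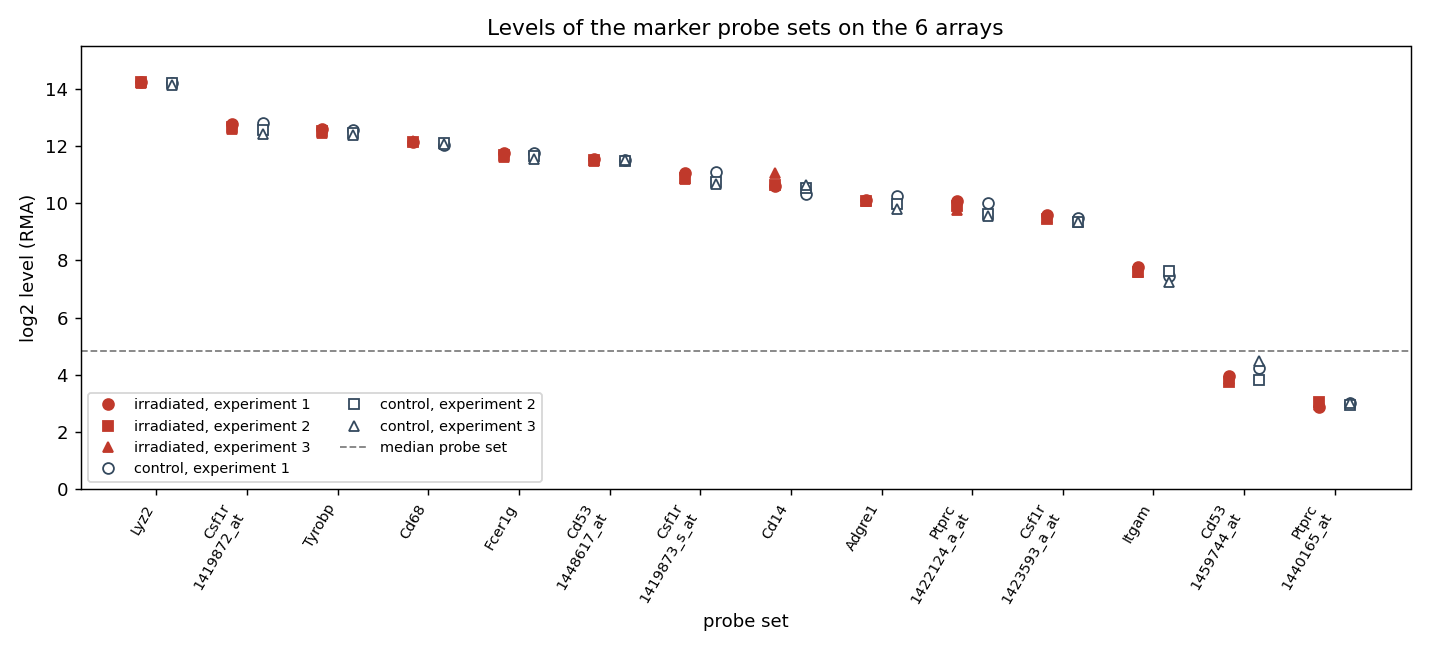
Log2 level (vertical axis) of the 14 marker probe sets (horizontal axis) on each array. Filled red symbols are irradiated and open symbols control cultures, with 1 symbol shape per experiment, and the dashed line is the median probe set. In all 6 cultures 12 of the probe sets lie well above that line, and the symbols of the 2 groups nearly coincide.

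Among the surface receptors, Csf1r read 12.78, 12.68 and 12.58 in irradiated cultures 1, 2 and 3 by probe set 1419872_at, against 12.80, 12.56 and 12.42 in control cultures 1, 2 and 3. The groups overlapped, and the 2 cultures of experiment 1 read highest in each group. Csf1r probe set 1419873_s_at read 11.07, 10.87 and 10.84 in irradiated and 11.08, 10.75 and 10.68 in control cultures, and 1423593_a_at read 9.59, 9.46 and 9.47 in irradiated and 9.49, 9.34 and 9.34 in control cultures. Cd14 read 10.61, 10.65 and 11.04 in irradiated cultures, against 10.31, 10.53 and 10.64 in control cultures. Irradiated culture 3 was the highest of the 6 for Cd14, and the groups overlapped by a narrow margin. Adgre1 read 10.11, 10.07 and 10.07 in irradiated cultures and 10.26, 9.97 and 9.78 in control cultures, so that the controls spanned the irradiated values.

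Tyrobp, an adaptor with an activation motif that partners Trem2 and related receptors, read 12.60, 12.53 and 12.47 in irradiated cultures, against 12.57, 12.47 and 12.37 in control cultures. Fcer1g, the common chain of Fc receptors, read 11.76, 11.69 and 11.61 in irradiated cultures and 11.77, 11.65 and 11.55 in control cultures. Both adaptors overlapped between the groups, with experiment 1 on top in each group.

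Among the leukocyte surface proteins, Ptprc probe set 1422124_a_at read 10.09, 9.90 and 9.76 in irradiated cultures, against 10.01, 9.63 and 9.55 in control cultures. Itgam read 7.78, 7.61 and 7.61 in irradiated cultures and 7.45, 7.64 and 7.26 in control cultures. Cd53 probe set 1448617_at read 11.53, 11.51 and 11.49 in irradiated cultures and 11.52, 11.49 and 11.52 in control cultures. For each of Ptprc, Itgam and Cd53 the groups overlapped, and control culture 3 read lowest for Ptprc and Itgam. The range of Cd53 over the 6 arrays was 0.04, at percentile 0.077 of the ranges of all probe sets, while Ptprc ranged over 0.54 and Itgam over 0.52. The dim Cd53 probe set, 1459744_at, read 3.96, 3.75 and 3.86 in irradiated and 4.25, 3.83 and 4.48 in control cultures, and the dim Ptprc probe set stayed between 2.88 and 3.05.

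The lysosomal genes ranged over 0.10 (Lyz2) and 0.12 (Cd68). Lyz2 read 14.23, 14.25 and 14.22 in irradiated cultures, against 14.22, 14.21 and 14.15 in control cultures, close to the highest value on any array, 14.57, so its small range is not read as stability. Lyz2 has a near-identical copy, Lyz1, whose probe set 1436996_x_at read 14.45 to 14.57 and 1439426_x_at 13.76 to 13.97. The remaining Lyz1 probe set, 1450822_at, read only 4.51 to 4.71, so the level of Lyz1 itself is uncertain. How far probes of either gene bind the transcript of the other was not tested, so the reading is not assigned to Lyz2 alone. Cd68 read 12.15, 12.15 and 12.16 in irradiated cultures, against 12.04, 12.11 and 12.08 in control cultures, and was the only 1 of the 14 probe sets whose irradiated values all lay above its control values. Over all probe sets 3.63% had irradiated arrays all above control arrays.

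Many other phagocyte genes also lay at high percentiles. Of 8 lists grouped after their values were seen (Fc receptors and adaptors, signalling kinases and adaptors, actin regulators, transcription factors, scavenger receptors, complement, phagocyte oxidase and lysosomal proteins), 88 of 93 measured genes lay at or above the median probe set and 73 above percentile 75, with a median percentile of 88.9. Over all genes, 11740 of 18193 lay at or above that median, and the median percentile was 65.5. The 8 lists also hold genes that other cells express, such as Lamp1 (13.14), Ctsd (13.26) and Cebpb (12.02). Which cells made these transcripts was not measured, so the high percentiles are not a measure of macrophages alone. Outside this grouping, inflammatory macrophage products lay at or above the median probe set in 5 of 10 and alternatively activated macrophage genes in 5 of 9, with median percentiles of 50.4 and 55.4. The opsonin genes C1qa and C1qb averaged 11.55 each, the cathepsin gene Ctss 12.76, and Mpeg1, which encodes a pore-forming protein of phagocytes, 11.97. Fcgr3, a receptor for antibody complexes, averaged 12.08, and Mrc1, the mannose receptor, 11.88. Other genes of the 8 lists lay below the median probe set, namely Timd4 (3.45), Siglece (3.99), Batf3 (4.37), Cd163 (4.54) and Vsig4 (4.65). Siglec1 (5.41) and Fcgr1 (5.78) lay not far above it. Outside the 8 lists, Itgax averaged 4.10, Ccr2 4.51 and Cx3cr1 4.53. Cybb, the catalytic chain of the phagocyte oxidase, averaged 10.47, and Itgb2, the partner chain of Itgam, 10.49. Spi1, which encodes PU.1, read 8.31, 8.06 and 8.27 in irradiated cultures, against 8.10, 8.09 and 8.01 in control cultures, so the groups overlapped. Csf1, the ligand of Csf1r, averaged 11.04, and Il34, its other ligand, 5.61.

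Markers of other leukocytes were mostly low. Over 5 lists for T and NK, B, neutrophil, mast and related, and dendritic cells, 12 of 50 measured genes lay at or above the median probe set and 2 above percentile 75, with a median percentile of 34.5. T and NK markers ran from Klrd1 at 2.87 to Zap70 at 7.59, and Cd3e, the T cell receptor chain, averaged 5.19. B cell markers ran from Fcer2a at 2.96 to Cd22 at 5.32, and mast cell, basophil and eosinophil markers from Il5ra at 2.77 to Mcpt8 at 6.39. Dendritic cell markers ran from Ccr7 at 3.10 to Ly75 at 6.57. Neutrophil markers ran from S100a9 at 3.46 to S100a8 at 9.37, whose proteins usually pair. The MHC class II list, whose genes present antigen, had a median level of 5.27, with Cd74 at 5.43 and H2-Aa at 3.66. Stromal and fat markers were high, for 11 of 12 stromal genes and 8 of 8 adipocyte genes lay at or above the median probe set, with median percentiles of 94.0 and 97.4. Pdgfrb, a receptor of stromal cells, averaged 10.85, while Thy1, a common stromal surface marker, averaged 3.84. How many cells carried stromal or macrophage transcripts was not measured.

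**Figure D2:**
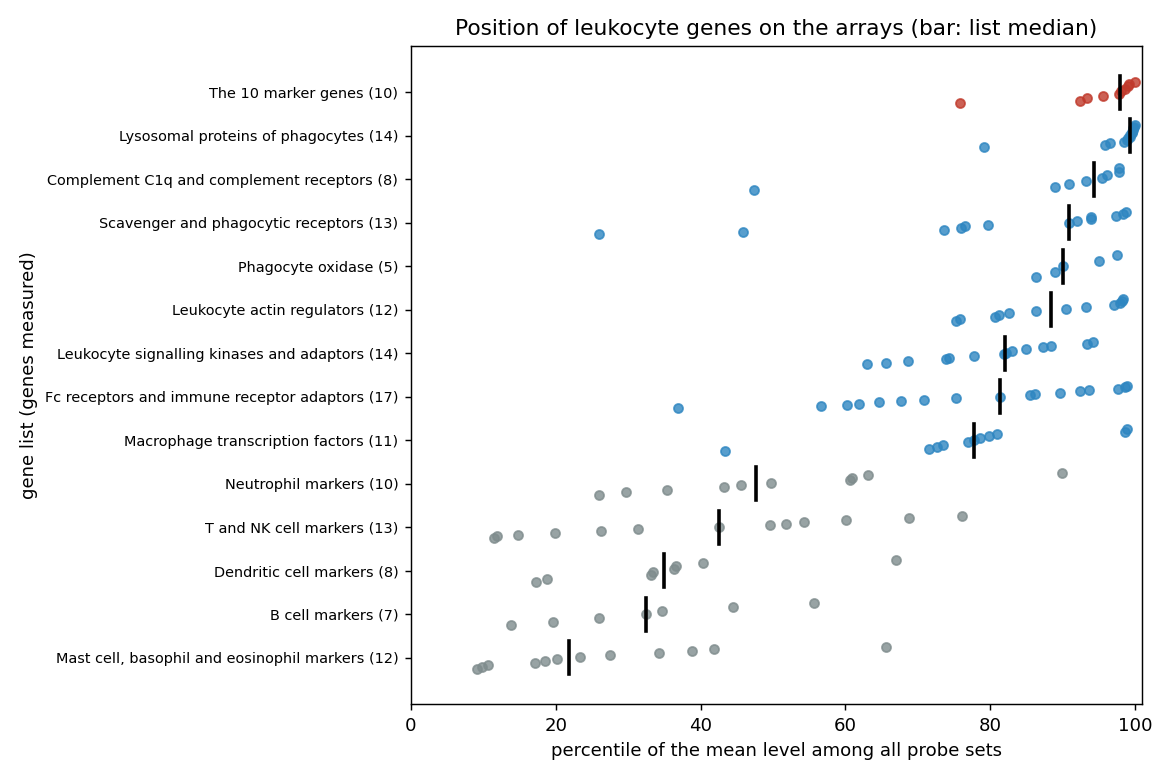
Each point is a gene, placed by the percentile of its mean log2 level among all probe sets (horizontal axis), in rows by list, with bars at list medians, the 10 marker genes in red, phagocyte lists in blue and other leukocyte lists in grey. The phagocyte lists lie high, up to a median percentile of 99.3 for lysosomal proteins, and the lists of mast cell and B cell markers lie low, at 21.8 and 32.4. The phagocyte lists include genes that other cells also express, and which cells made the transcripts was not measured.

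The study asked whether irradiation changed expression relative to the adjacent culture, and for these marker genes no probe set passed the test. Of the 14 probe sets 0 had an adjusted p under 0.05 (limma with experiment as a block, Benjamini-Hochberg over all probe sets), as did 0% of all 45037. At an unadjusted p under 0.05 there were 2 of 14, Cd14 and the dim Cd53 probe set, against 4.97% of all probe sets, 2.59% higher and 2.38% lower. The mean difference, irradiated minus control on the log2 scale, was positive in 11 of the 14 probe sets, 0 in 1 and negative in 2, and it was positive in 51.1% of all probe sets. It was positive in all 3 pairs in 6 of 14, against 12.6% of all, and negative in all 3 pairs in 1, against 11.2%. The probe sets share cultures and arrays, so their common direction is not a set of independent observations.

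Cd14 had the largest difference among the bright probe sets. It averaged 10.77 ± 0.24 in irradiated and 10.49 ± 0.17 in control cultures (SD, n = 3 each), with differences of 0.30, 0.12 and 0.40 in experiments 1, 2 and 3. The mean difference was 0.27 ± 0.09 (SE), or 1.21-fold, with a 95% interval from 0.06 to 0.49, and limma gave an unadjusted p of 0.020 and an adjusted p of 0.929. Among its partners in lipopolysaccharide sensing, Tlr4 differed by 0.0067 ± 0.087 and Ly96, which encodes MD-2, by 0.0033 ± 0.094. The next brightest Tlr4 probe set, 1418163_at, differed by -0.083, and Lbp, of the same list, by -0.25. Itgam differed by 0.33, -0.03 and 0.35 in the 3 pairs, with a mean of 0.22 ± 0.10 and an interval from -0.03 to 0.47. Ptprc differed by 0.08, 0.27 and 0.21 by its bright probe set, with a mean of 0.19 ± 0.08 and an interval from -0.01 to 0.38. The adjusted p was 0.929 for both Itgam and Ptprc in limma, so neither passed.

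**Figure D3:**
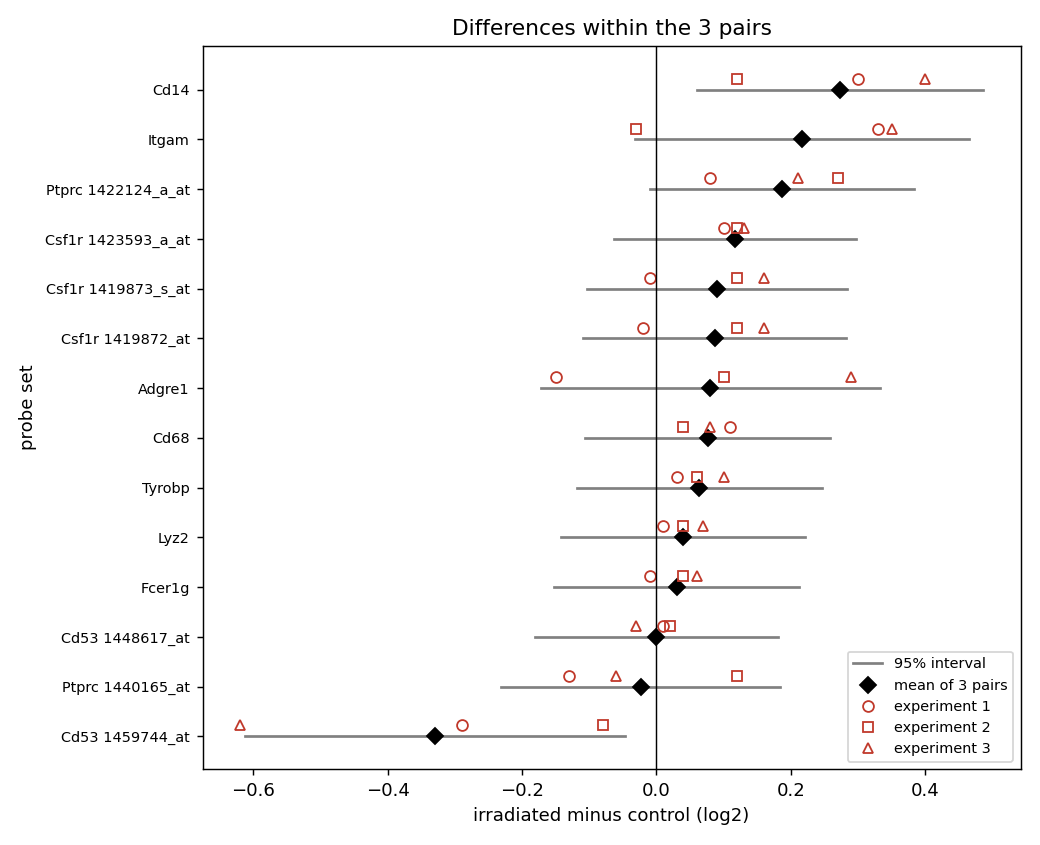
Irradiated minus control log2 difference of each marker probe set, with the 3 experiments as symbols and the mean with its 95% interval from limma. Cd14 has an interval above 0 and Cd53 1459744_at one below 0 before adjustment, and the other intervals include 0.

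The remaining bright probe sets differed by 0.12 or less. Csf1r differed by 0.09 ± 0.08, 0.09 ± 0.08 and 0.12 ± 0.07 in its 3 probe sets, with adjusted p from 0.929 to 0.944 in limma. Adgre1 had opposite signs, -0.15 in experiment 1 against 0.10 and 0.29 in experiments 2 and 3, and its mean of 0.08 ± 0.10 turned to -0.03 without experiment 3. Cd68, for which the groups did not overlap, differed by 0.11, 0.04 and 0.08, and its mean of 0.08 had an interval from -0.11 to 0.26. Lyz2, Tyrobp and Fcer1g differed by 0.04, 0.06 and 0.03, and the bright Cd53 probe set by 0 with an interval from -0.18 to 0.18. The dim Cd53 probe set differed by -0.33 ± 0.12, with an unadjusted p of 0.029 and an adjusted p of 0.929 in limma. The 95% interval lay within a 1.5-fold change in either direction for 13 of the 14 probe sets, and within 2-fold for 14 of 14. Such intervals were not counted over all probe sets. The SE ran from 0.074 to 0.116 in the 14, and its median over all probe sets was 0.088, so the bound is not particular to the marker genes. With 3 pairs the smallest two-sided p of an exact sign permutation is 0.25.

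Of the 12 bright probe sets, 8 were higher in the irradiated culture in experiment 1, 11 in experiment 2 and 11 in experiment 3. With 1 probe set per gene the median difference was 0.08 over the 10 genes, 0.02, 0.05 and 0.13 in the 3 pairs, and 0.048 without experiment 3. Over all genes it was 0.003, and 0.01, 0 and 0 in the 3 pairs. Control culture 3 had the lowest of the 6 values in 9 of the 12 bright probe sets, and its spike-in probe sets read highest, whose part in the differences was not tested. Over all genes the mean level was 6.474 in control culture 3 and 6.471 to 6.476 in the other cultures. The counts by array were not made over all bright probe sets, so a low reading particular to the marker genes cannot be told from a general one.

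**Figure D4:**
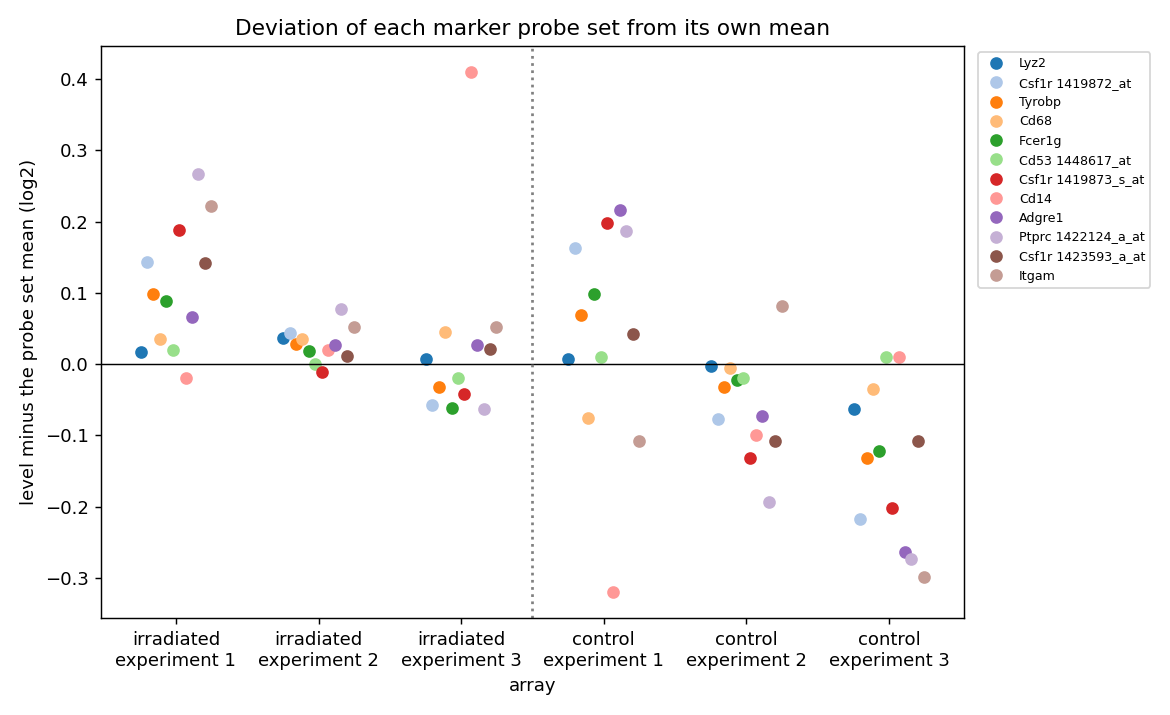
Deviation of each marker probe set from its own mean over the 6 arrays, in log2 units, by array. Of the 12 bright probe sets 11 lie above their mean in irradiated culture 1 and 10 below it in control culture 3. The same counts were not made over all bright probe sets.

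The related phagocyte lists showed small differences with irradiation, and no gene of any list passed the test. Over the 93 phagocyte genes 71 were higher and 19 lower in irradiated cultures, with a median of 0.06, against 9183 higher and 8752 lower of all 18193 genes. The scavenger receptors among them were 5 higher and 7 lower, with a median of -0.03. Leukocyte actin regulators had a median of 0.09 and were positive in 12 of 12, and lysosomal genes had a median of 0.045 and were positive in 13 of 14. Clec4e, a receptor for mycobacterial lipid, read 8.81, 9.01 and 9.12 in irradiated cultures and 8.74, 8.57 and 8.03 in control cultures, so that every irradiated value lay above every control value. Its differences were 0.07, 0.44 and 1.09 in the 3 pairs, with a mean of 0.53 ± 0.19, an adjusted p of 0.929 in limma, and 0.255 without experiment 3. Msr1, a scavenger receptor, differed by 0.24 ± 0.09, while Cd36, of the same list, differed by -0.21 ± 0.09. Fcgr4 differed by -0.17 ± 0.15 and Trem2 by -0.12 ± 0.09. Outside the phagocyte lists Tlr7, a sensor of RNA, differed by 0.30 ± 0.09. The adjusted p in limma was 0.929 for Msr1, Cd36 and Tlr7. The 8 adipocyte markers all had negative differences, with a median of -0.14, and the MHC class II list had a median of -0.12.

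Between experiments none of the 14 probe sets passed the test in any contrast. The range over the 6 arrays was 0.5 or less in 10 of 14, against 76% of all probe sets. In experiment 3 minus experiment 1, 0 of 14 had an adjusted p under 0.05 in limma, against 3.05% of all probe sets, and 4 of 14 an unadjusted one, against 19.1%. The corresponding counts were 0 of 14 in experiment 2 minus 1, against 0.52%, and 0 of 14 in experiment 3 minus 2, against 0.0355%. An unadjusted p under 0.05 was met by 2 and 1 of 14 in these contrasts, against 9.89% of all in each. The F test over the 3 experiments called 0 of 14, against 1.53%. In experiment 3 both arrays lay below both arrays of experiment 1 in 7 of 14 probe sets, against 25.8% of all, and above them in 1, against 21.7%. The mean difference was negative in 10 of 14, against 51.5% of all. In experiment 2 both arrays lay below both of experiment 1 in 9 of 14, against 23.2%, and above them in 0, against 19.3%. In experiment 3 both lay below both of experiment 2 in 1, against 20.1%, and above them in 1, against 18.3%. Each experiment is 1 irradiated and 1 control culture, and these tests rest on how far the 3 pair differences disagree, with 2 residual degrees of freedom before limma's prior. Experiment 1 also stood apart in the 3' minus 5' difference of Gapdh, whose part in the contrasts with experiment 1 was not tested.

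The differences furthest from 0 between experiments 3 and 1 were those of Ptprc, Cd14 and Csf1r. Ptprc averaged 9.66 in experiment 3 and 10.05 in experiment 1, a difference of -0.40 ± 0.10 with an unadjusted p of 0.0068 and an adjusted p of 0.104. Csf1r averaged 12.50 in experiment 3 and 12.79 in experiment 1, a difference of -0.29 ± 0.10 with an adjusted p of 0.190. Cd14 averaged 10.84 in experiment 3 and 10.46 in experiment 1, a difference of 0.38 ± 0.11 with an adjusted p of 0.133. These values missed the threshold in limma. With an intensity trend in its prior Ptprc, Cd14 and 2 of the 3 Csf1r probe sets passed, at adjusted p of 0.012 to 0.018. So did 7.85% of all probe sets. With the filter on dim probe sets Ptprc passed, as did 11% of the probe sets kept. Adgre1 differed by -0.26, Tyrobp by -0.17 and Fcer1g by -0.19, while Cd68 differed by 0.03 and Lyz2 by -0.04.

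Of the chemokine list 4 of 13 genes and of the inflammatory list 3 of 10 were called higher in experiment 3 than in experiment 1, and 0 lower, against 376 higher and 194 lower of all 18193 genes. By sign these lists held 8 higher and 5 lower, and 6 higher and 4 lower. Many of these genes are also made by stromal cells. Ccl4, a macrophage chemokine, read 9.30 and 9.05 in the irradiated and control cultures of experiment 3, against 7.88 and 7.65 in those of experiment 1, and rose by 1.41 ± 0.10 with an adjusted p of 0.0025. Ccl7 rose by 1.69 ± 0.14, Ccl2 by 1.28 ± 0.12 and Ccl3 by 0.84 ± 0.14. Ccl12 differed by -0.90 ± 0.19 and Ccl9 by -0.32 ± 0.11, and neither passed, while Il1b differed by -0.005 and Nos2 by -0.17. Ptgs2, the inducible cyclooxygenase, rose by 4.58 ± 0.16 with an adjusted p of 0.00029 in limma, and Il6 by 2.25 ± 0.25. Cd86, a costimulatory protein, rose by 1.10 ± 0.11, Cebpb, a transcription factor of macrophages and fat cells, by 0.97 ± 0.11 and Clec7a, the receptor dectin-1, by 0.94 ± 0.11. Over the 93 phagocyte genes, each by its brightest probe set, 2 were called higher and 0 lower in experiment 3, with 25 higher and 67 lower by sign. Dimmer probe sets of these genes were called in both directions. Maf 1444073_at differed by -1.455 and Pik3cg 1422708_at by -0.725. Ctsl 1457724_at differed by 2.5, Cebpb 1427844_a_at by 1.275, Plek 1417523_at by 0.745 and Plek 1448749_at by 0.67. No probe set passed in this contrast when any 1 of the 6 arrays was left out, which leaves 1 residual degree of freedom. Whether macrophages or stromal cells made these transcripts was not tested.

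**Figure D5:**
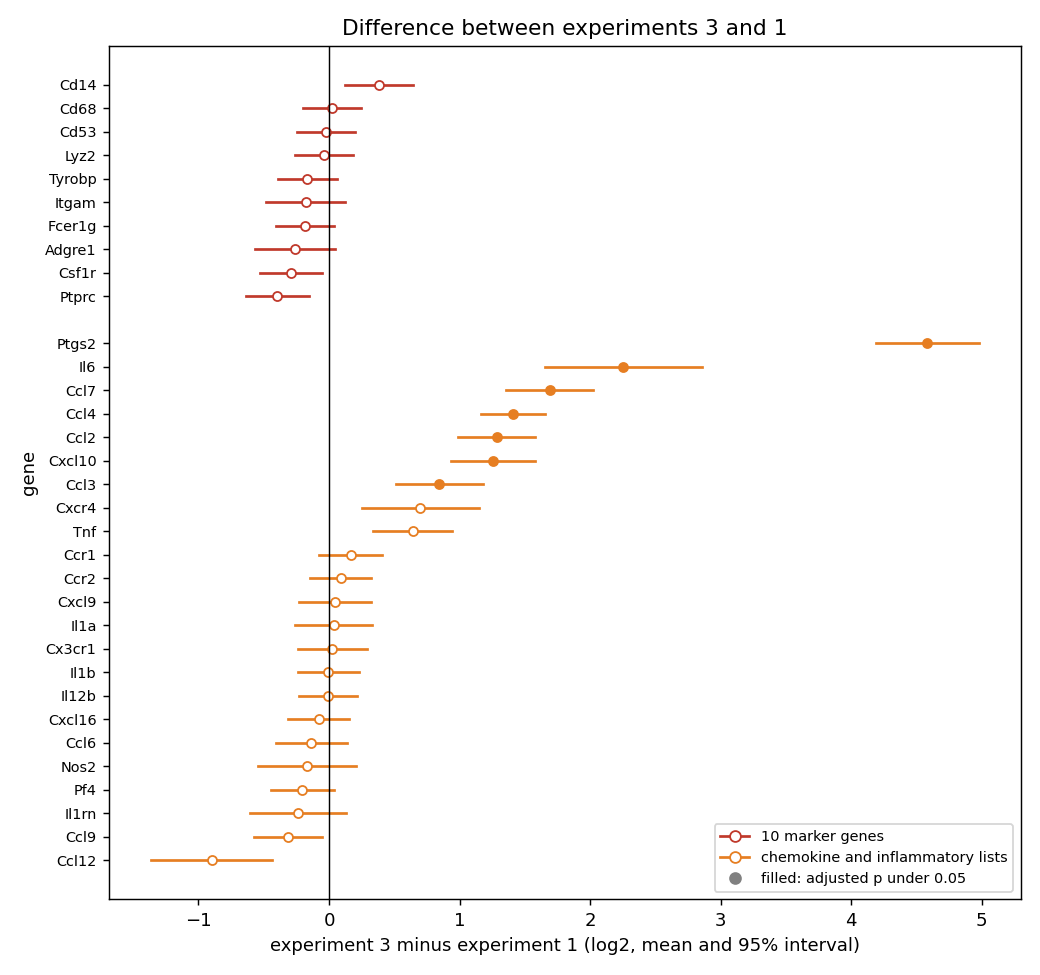
Experiment 3 minus experiment 1 (log2, point and 95% interval from limma) for the 10 marker genes in red, 1 probe set each, and for chemokine and inflammatory genes in orange, filled where the adjusted p is under 0.05. The marker genes lie between -0.40 for Ptprc and 0.38 for Cd14, all unfilled, while Ptgs2 lies at 4.58.

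Among 4797 probe sets at or above the median level with a range of at least 0.5, the 10 whose pattern over the 6 arrays was most like the mean of the marker genes were those of Bub1b, Zdhhc14 (2 probe sets), Espl1, Gabpb2, Ninj1, Ankrd10, Ncaph, Mcm2 and St6galnac4. Their Pearson r was 0.98 to 0.99 over 6 arrays that share cultures and normalization, and was picked as the highest of many. Bub1b, a mitotic checkpoint kinase, read 7.39, 7.16 and 7.20 in irradiated cultures, against 7.21, 7.01 and 6.73 in control cultures. Ninj1, a membrane protein, read 12.41, 12.33 and 12.25 in irradiated cultures, against 12.29, 12.14 and 11.90 in control cultures. In both genes irradiated culture 1 was the highest and control culture 3 the lowest. The mean of the marker genes, by which they were picked, has the same extremes, so this is no separate observation.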

How the data were processed

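Total RNA (200 ng) of 3 irradiated and 3 control cultures was hybridized to Affymetrix arrays. The deposited values are log2 levels. The submitters' processing notes name RMA, affy and limma for the authors' steps, without versions. The base of the logarithm was taken as 2, as RMA gives. Changes are relative to other transcripts, and 3 arrays per group limit the precision. Of 45101 probe sets 64 controls were left out. The platform annotation gave 34945 of the 45037 tested probe sets 1 symbol, 932 several and 9160 none. limma 3.58.1 in R 4.3.3 fitted irradiation with experiment as a block, two-sided, adjusted by Benjamini-Hochberg at a threshold of 0.05, and contrasts between experiments came from the same fit. The series design pairs each irradiated culture with its adjacent control, and paired deviations correlated at 0.63, 0.14 and 0.50. The marker genes and 24 other lists (269 of 291 genes measured over all 25) were chosen with earlier results of these data known. The phagocyte and other-leukocyte groupings were made after seeing the values. A gene stands by its brightest single-gene probe set. Named genes were the marker genes, list genes past the test in experiment 3 minus 1, extremes of leukocyte lists, and the 10 most alike patterns. The 2 smallest unadjusted p per list were also drawn up for irradiation and for experiment 3 minus 1. Only some of those genes are given in the text, so the genes shown are not the full selection. The other genes, named for their function, were chosen after their values were seen. The fit was also run on values simulated with planted changes and independent normal residuals. The outcome of that run is not given here, so it does not bear on the counts of calls. Alternatives covered the block, normalization, dim filter, prior, array weights and left-out arrays.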

Additional observations from a re-analysis of the deposited data

How the results depend on the processing

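Irradiation called 0 probe sets by limma in every setting tried, with 2237 at an unadjusted p under 0.05, and 1297 with no replicate block, where 0 were also called. In experiment 3 minus 1 the count of 1374 became 2553 with the filter on dim probe sets and 3534 with an intensity trend. The filter on dim probe sets also called Ptprc 1422124_a_at (adjusted p = 0.044, with 11% of probe sets called). In experiment 2 minus 1 the count of 234 became 670 with the trend. In experiment 3 minus 2 the count of 16 became 52 with no irradiation term, 52 with the dim filter and 275 with the trend. Leaving out any 1 array gave 0 to 0 calls in all 3 contrasts. Small values changed sign: with quantile normalization Cd68 in 3 minus 1 became -0.00875 and Lyz2 in 2 minus 1 -0.037, and with median centring Cd68 in 3 minus 2 became 0.010. With 1 experiment or array left out, irradiated minus control spanned -0.025 to 0.32 for Acp5, -0.025 to 0.20 for Adgre1, -0.02 to 0.18 for Csf2, -0.55 to 0.03 for Retnla and -0.095 to 0.03 for Ptprc 1440165_at. In 3 minus 1 the spans were -0.043 to 0.0025 for Cd53 1448617_at, -0.15 to 0.28 for Cd53 1459744_at and -0.035 to 0.13 for Ptprc 1440165_at. In 2 minus 1 they were -0.34 to 0.0075 for Adgre1, -0.18 to 0.20 for Itgam, -0.018 to 0.028 for Lyz2 and -0.063 to 0.15 for Ptprc 1440165_at. In 3 minus 2 they were -0.25 to 0.063 for Adgre1, -0.018 to 0.028 for Cd53 1448617_at, -0.038 to 0.018 for Cd68, -0.10 to 0.0025 for Csf1r 1419873_s_at and -0.005 to 0.015 for Csf1r 1423593_a_at. The cause of these changes was not tested.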

Other observations

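The single lists, those inside the phagocyte grouping included, differed as follows. Toll-like receptor and CD14 pathway genes lay at or above the median probe set in 15 of 15, with a median irradiated minus control difference of 0.05, and 13 of 15 were positive. Signalling kinases and adaptors of leukocytes had a median of 0.09 with 12 of 14 positive, scavenger receptors -0.03 with 5 of 13 positive, and beta2 integrins and adhesion genes 0.0083 with 7 of 14 positive. The medians were 0.03 for Fc receptors and adaptors, 0.06 for macrophage transcription factors, 0.07 for complement genes, 0.11 for the phagocyte oxidase, 0.06 for chemokines and their receptors, -0.06 for inflammatory products, 0.04 for alternatively activated macrophage genes and 0.0067 for the CSF1 axis. Among other cell types they were 0.06 for T and NK, 0.14 for B, 0.0067 for neutrophil, -0.03 for mast and related, 0.04 for dendritic, 0.010 for erythroid and platelet, 0.085 for endothelial and 0.0033 for stromal genes. No gene of these lists passed the irradiation test in limma.

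In experiment 3 minus 1, a contrast between experiments, single genes of low lists passed the limma test. Gzmb, a granzyme, rose by 0.55 ± 0.10 (adjusted p = 0.046 in limma), Mcpt8, a basophil protease, by 0.61 ± 0.11 (adjusted p = 0.049) and Pecam1, an endothelial adhesion molecule that read 2.58 to 3.21 over the 6 arrays, by 0.56 ± 0.10 (adjusted p = 0.049). Outside the low lists, Cxcl10 of the inflammatory list rose by 1.25 ± 0.13. Ticam1, a Toll-like receptor adaptor, rose by 0.52 ± 0.09. With a robust prior Mcpt8, Pecam1 and Ticam1 did not pass. None of these genes passed when any 1 array was left out, but neither did any other probe set. Those fits leave 1 residual degree of freedom and cannot decide on single genes.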
